A study of Rattus norvegicus with 48 samples.

Results

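Toll-like receptors are membrane sensors of microbial and damage-associated molecules, and most of them signal through the adaptor Myd88. Inflammasomes are cytosolic complexes in which a sensor such as Nlrp3 gathers the adaptor Pycard, which in turn activates the protease Casp1. Casp1 and its relative Casp4 cut Gsdmd, whose freed fragment opens pores in the plasma membrane. In brain tissue these genes are known mainly from microglia, and receptor signalling is known to raise the transcripts of several inflammasome parts.

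The genes described are Tlr2, Tlr3, Tlr4, Cd14, Myd88, Nlrp3, Casp1, Casp4, Pycard and Gsdmd, found by symbol in a table of normalised RNA-seq values. All 10 were present among its 30211 genes, and all 10 were among the 15890 genes that passed the filter on low values (at least 0.5 CPM, a read count scaled to library size, in at least 3 of 48 libraries). The libraries came from mixed cortical cultures of late fetal Sprague-Dawley rats, used after 3 weeks in vitro, in 16 groups of 3 libraries. The groups were Control, Cocaine (25 µM, 24 h), Tat (the HIV transactivator protein, 6 ng/ml, 48 h) and Tat-Cocaine, and 4 compounds, each applied by itself, together with Tat, and on top of both Tat and cocaine. The compounds were 4OI (4-octyl itaconate, a cell-permeable itaconate ester, 250 µM), Amlexanox (known as an inhibitor of the kinases TBK1 and IKK-epsilon, 25 µM), Tazemetostat (an inhibitor of the histone methyltransferase EZH2, 3 µM) and Senicapoc (a blocker of a calcium-activated potassium channel, 1 µM). There was no group with cocaine and a compound but without Tat. By the study's figure legends, cocaine was given for 24 h after the 48 h of Tat. Cultures with both may therefore have been exposed to Tat for longer than cultures with Tat and no cocaine. The labels do not tie replicate numbers to separate preparations, so p-values measure the spread between these libraries, which may be technical.

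The labels call the cells neurons, yet the libraries held RNA of several cell types. Summed over the markers of each list, neuronal markers ranged from 1016 to 4459 CPM across libraries, astrocyte markers from 5787 to 14257 CPM, and the 12 markers of microglia and macrophages from 540 to 4639 CPM, with none of these 12 at 0 in any library. Oligodendrocyte-lineage markers reached 25922 CPM in 1 Cocaine library, against 1704 CPM in the lowest library of that group. Neutrophil markers were at or near 0, with Elane listed at 0 in 47 libraries and S100a9 in 27, although S100a8 reached 9.41 CPM. Of the endothelial markers, Cldn5 was at 0 in 25 libraries, while Cdh5 was at 0 in none and reached 5.72 CPM. Pdgfrb ranged from 16.7 to 84.5 CPM and Col1a1 from 24.9 to 299 CPM. Summed markers of endothelium, pericytes and fibroblasts ranged from 60.5 to 349 CPM, and their part in the differences below was not tested. Library totals, estimated from the CPM that 1 read is worth, ran from about 17515000 to 29057000 reads, so that 0.5 CPM stood for 8.58 to 14.96 reads. In such bulk libraries fewer cells of a type and less RNA per cell cannot be told apart.

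The promoters of 4 members that carry different matches are shown first. RefSeq (build GRCr8) promoter sequences were matched for 8 of the 10 members, and Casp4 and Gsdmd had no entry. Each line gives the 250 bases before the gene start in the direction of transcription, in lower case, with matches to the searched motifs in capitals. The windows are chr2:171504558-171504807 (minus strand) for Tlr2, chr18:28611159-28611408 (minus strand) for Cd14, chr8:127956231-127956480 (minus strand) for Myd88 and chr8:10872580-10872829 (plus strand) for Casp1.
Tlr2: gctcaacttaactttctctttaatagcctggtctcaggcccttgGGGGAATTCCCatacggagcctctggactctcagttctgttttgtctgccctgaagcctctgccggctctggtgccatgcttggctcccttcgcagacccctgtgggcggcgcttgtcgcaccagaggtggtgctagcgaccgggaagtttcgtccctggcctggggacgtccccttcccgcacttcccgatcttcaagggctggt
Cd14: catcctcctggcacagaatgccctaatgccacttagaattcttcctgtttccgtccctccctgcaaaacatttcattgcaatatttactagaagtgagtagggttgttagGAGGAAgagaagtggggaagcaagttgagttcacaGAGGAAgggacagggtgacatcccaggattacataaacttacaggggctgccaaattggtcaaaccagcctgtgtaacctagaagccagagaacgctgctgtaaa
Myd88: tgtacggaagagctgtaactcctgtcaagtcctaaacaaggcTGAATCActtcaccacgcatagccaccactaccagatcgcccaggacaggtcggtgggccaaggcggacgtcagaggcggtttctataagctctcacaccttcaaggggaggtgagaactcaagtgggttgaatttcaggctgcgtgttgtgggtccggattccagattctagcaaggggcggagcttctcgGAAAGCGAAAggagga
Casp1: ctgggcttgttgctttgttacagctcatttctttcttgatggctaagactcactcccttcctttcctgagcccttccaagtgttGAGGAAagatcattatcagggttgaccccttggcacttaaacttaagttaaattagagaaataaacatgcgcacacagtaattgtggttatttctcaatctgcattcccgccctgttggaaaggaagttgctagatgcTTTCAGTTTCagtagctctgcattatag

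The capitals mark overlapping matches to the NF-kB consensus in Tlr2, a pair of matches to the ETS core GAGGAA in Cd14, an AP-1 match (TGANTCA) and an interferon-response core (GAAA, any 2 bases, GAAA) in Myd88, and an ETS and an interferon-response match in Casp1. Motifs were searched on both strands in windows that also held the 50 bases after the start. Of the 8 member promoters, 1 held the NF-kB consensus, against 4.18% of all 33469 promoters in the table. The interferon-response core was in 2 of 8 (Myd88 and Casp1) against 3.92% of all promoters, and the AP-1 motif in 1 of 8 against 7.33%. The ETS core was in 5 of 8 (Tlr3, Tlr4, Cd14, Nlrp3 and Casp1) against 27.6%, and the antioxidant response core TGACNNNGC in 0 of 8 against 12.1%. These are matches of letters in a window and say nothing of binding.

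Across the 16 groups, 9 of the 10 genes were highest in the Tat-Cocaine-Tazemetostat group. Casp4 was the exception, with its highest mean in Tat-Cocaine-4OI, at 96.9 ± 10.4 CPM (SD, n = 3), and its lowest in 4OI alone, at 43.04 ± 1.38 CPM. Cd14, the co-receptor that hands lipopolysaccharide to Tlr4, had the widest span of group means, from 11.2 ± 1.44 CPM in 4OI to 239 ± 63.2 CPM in Tat-Cocaine-Tazemetostat, a ratio of 21.4. The span was 8.48-fold for Tlr2, 7.05-fold for Pycard, 6.63-fold for Casp1 and 5.07-fold for Tlr4, and was smallest for Casp4 (2.25-fold) and Gsdmd (2.28-fold). With the groups put in order of their means, libraries of neighbouring groups overlapped in all 15 neighbouring pairs for Tlr2, Tlr3, Cd14, Nlrp3 and Pycard. For each of Tlr4, Myd88, Casp1, Casp4 and Gsdmd, 1 of the 15 pairs did not overlap.

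**Figure D1:**
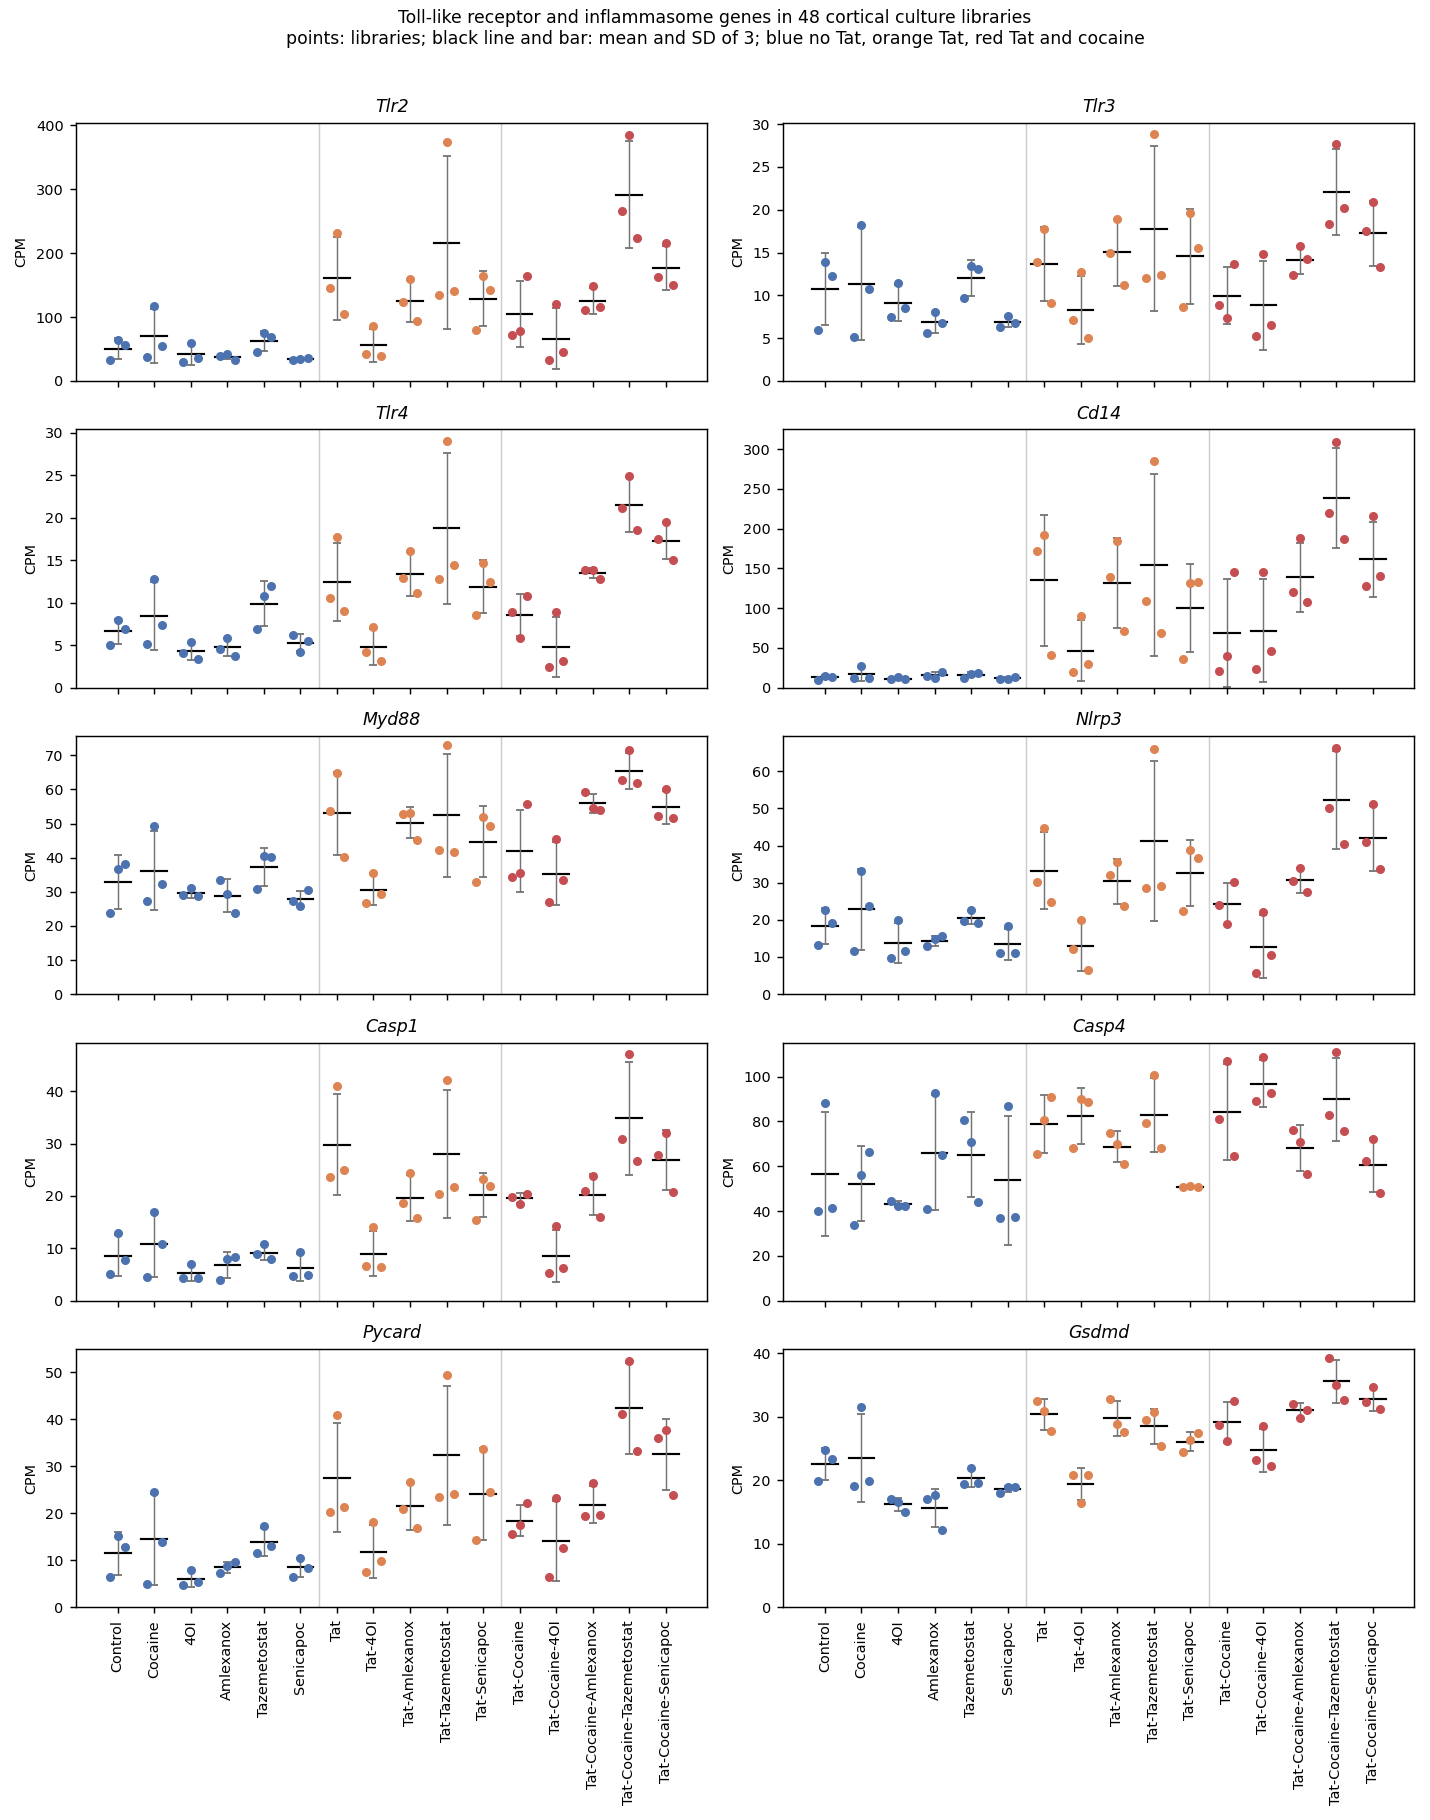
Level of each gene in CPM (vertical axis, linear from 0) in the 16 groups, with points for libraries, black lines for means and grey bars for the SD of 3 libraries. Cd14 libraries without Tat lie between 9.82 and 27.3 CPM, while Casp4 libraries with and without Tat overlap widely.

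Tat alone was compared with Control to ask which of these genes the viral protein changes. Transcripts of the receptors Tlr2 and Cd14, the adaptor Myd88, the protease Casp1, the inflammasome adaptor Pycard and the pore-former Gsdmd were higher with Tat, 6 of the 10 genes, and none was lower. Over all genes tested, 14.6% were higher (limma on log2(CPM + 0.5), Benjamini-Hochberg FDR under 0.05). The median difference of the 10 genes was 0.83 on the log2 scale, against 0.0075 over all genes. The per-library values and tests follow by role. Lack of overlap between groups is given as a description, since an exact rank test of 3 libraries against 3, in either direction, cannot give a p under 0.1.

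Cd14 stood at 172, 192 and 40.5 CPM in the Tat libraries and at 9.82, 14.9 and 13.7 CPM in the Control libraries. Every Tat library lay above every Control library, although the third Tat library was far below the other two. The log2 difference in Cd14 was 3.08 ± 0.64 (SE), an 8.46-fold rise (FDR 0.00054). Tlr2, the receptor for bacterial lipoproteins, stood at 146, 232 and 105 CPM with Tat and 32.8, 63.3 and 56.1 CPM in Control, again without overlap. Its log2 difference was 1.63 ± 0.43 (FDR 0.0059). Tlr4, the receptor for lipopolysaccharide, was at 10.6, 17.7 and 8.98 CPM against 5.06, 7.89 and 6.85 CPM. These Tlr4 libraries did not overlap, but the difference of 0.83 ± 0.35 did not pass the test (FDR 0.087). Tlr3, the endosomal receptor for double-stranded RNA, overlapped between the groups, at 13.9, 17.7 and 9.12 CPM against 5.98, 13.9 and 12.2 CPM (difference 0.36 ± 0.39, FDR 0.52). Myd88 was at 53.7, 64.8 and 40.3 CPM with Tat and 23.7, 36.7 and 38.04 CPM in Control. The groups did not overlap and the log2 difference was 0.69 ± 0.22 (FDR 0.025).

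Among the inflammasome genes, Casp1 had the largest difference. It stood at 23.5, 40.9 and 24.9 CPM with Tat against 5.14, 12.99 and 7.76 CPM in Control, with a clear gap between the groups. Its log2 difference was 1.78 ± 0.39, a 3.43-fold rise (FDR 0.0010). Pycard rose as well, with 20.3, 40.9 and 21.4 CPM against 6.40, 15.2 and 12.8 CPM and a log2 difference of 1.24 ± 0.42 (FDR 0.034). Gsdmd moved little in size but with a small spread, at 32.5, 30.9 and 27.8 CPM against 19.9, 24.8 and 23.3 CPM (log2 difference 0.42 ± 0.14, FDR 0.025). The sensor Nlrp3 was at 30.1, 44.7 and 24.9 CPM with Tat and 13.1, 22.7 and 19.02 CPM in Control. The Nlrp3 groups did not overlap, yet its difference of 0.84 ± 0.39 did not pass the test (FDR 0.12). Casp4, the caspase of the non-canonical pathway that binds lipopolysaccharide itself, was at 65.3, 80.5 and 90.9 CPM with Tat and 39.99, 88.4 and 41.4 CPM in Control. The second Control library lay among the Tat libraries, and the difference was 0.56 ± 0.30 (FDR 0.17).

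The number of genes called with Tat rested on single libraries. Without the second Tat library or without the first Control library it fell from 6 to 2, Cd14 and Casp1 being called without any 1 of the 6 libraries, and in a fit to the Tat and Control libraries alone it was 3. Markers of microglia and macrophages moved with Tat as well: 3 of 12 were higher (Itgam, Ptprc and Aif1), 1 was lower and their median log2 difference was 0.58. Their summed level ranged from 1725 to 3063 CPM in Tat and from 1369 to 2379 CPM in Control. Of the 5 border-macrophage markers 3 were lower and 1 higher with Tat, and 4 of 8 astrocyte markers were lower, the part of these in the differences not being tested. The summed neutrophil and monocyte markers, of which S100a8 alone was tested and was higher, were at 4.54 to 8.90 CPM with Tat and 0.182 to 0.735 CPM in Control, without overlap. With the mean log2 level of these 12 markers as a covariate, added after seeing the data, 7 of the 10 genes were called higher (2219 of all 15890 genes were), and the Cd14 and Casp1 differences were 2.63 and 1.37.

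Averaged over the 5 backgrounds in which Tat could be compared (no compound and each of the 4 compounds, without cocaine), all 10 genes were higher with Tat, where 29.9% of all genes were. The log2 difference was 2.72 ± 0.28 for Cd14 (FDR 9.7e-10), 1.44 ± 0.19 for Tlr2 (FDR 1.64e-07) and 1.42 ± 0.17 for Casp1 (FDR 2.66e-08). Pycard rose by 1.18 ± 0.19, Tlr4 by 0.85 ± 0.16 and Nlrp3 by 0.77 ± 0.17. The smaller rises were 0.53 ± 0.18 for Tlr3 (FDR 0.011), 0.52 ± 0.10 for Myd88, 0.51 ± 0.06 for Gsdmd and 0.40 ± 0.13 for Casp4 (FDR 0.010). Not every background held the rise. With 4OI the group means were lower with Tat for Tlr3 (8.32 ± 3.97 against 9.12 ± 2.10 CPM, SD) and Nlrp3 (12.9 ± 6.69 against 13.7 ± 5.42 CPM). With Senicapoc the mean of Casp4 was lower with Tat (50.9 ± 0.33 against 53.7 ± 28.8 CPM). All other pairs of group means were higher with Tat. The count of 10 was the same without any 1 of the 30 libraries. With the marker covariate it was 8 (23.8% of all genes were higher), Tlr3 (0.06, FDR 0.59) and Casp4 (0.21, FDR 0.21) no longer passing. Over the 48 libraries, 27 of the 30 with Tat had more Cd14 than the highest of the 18 without Tat (27.3 CPM), against 7 of 30 for Tlr3 and 5 of 30 for Casp4.

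**Figure D2:**
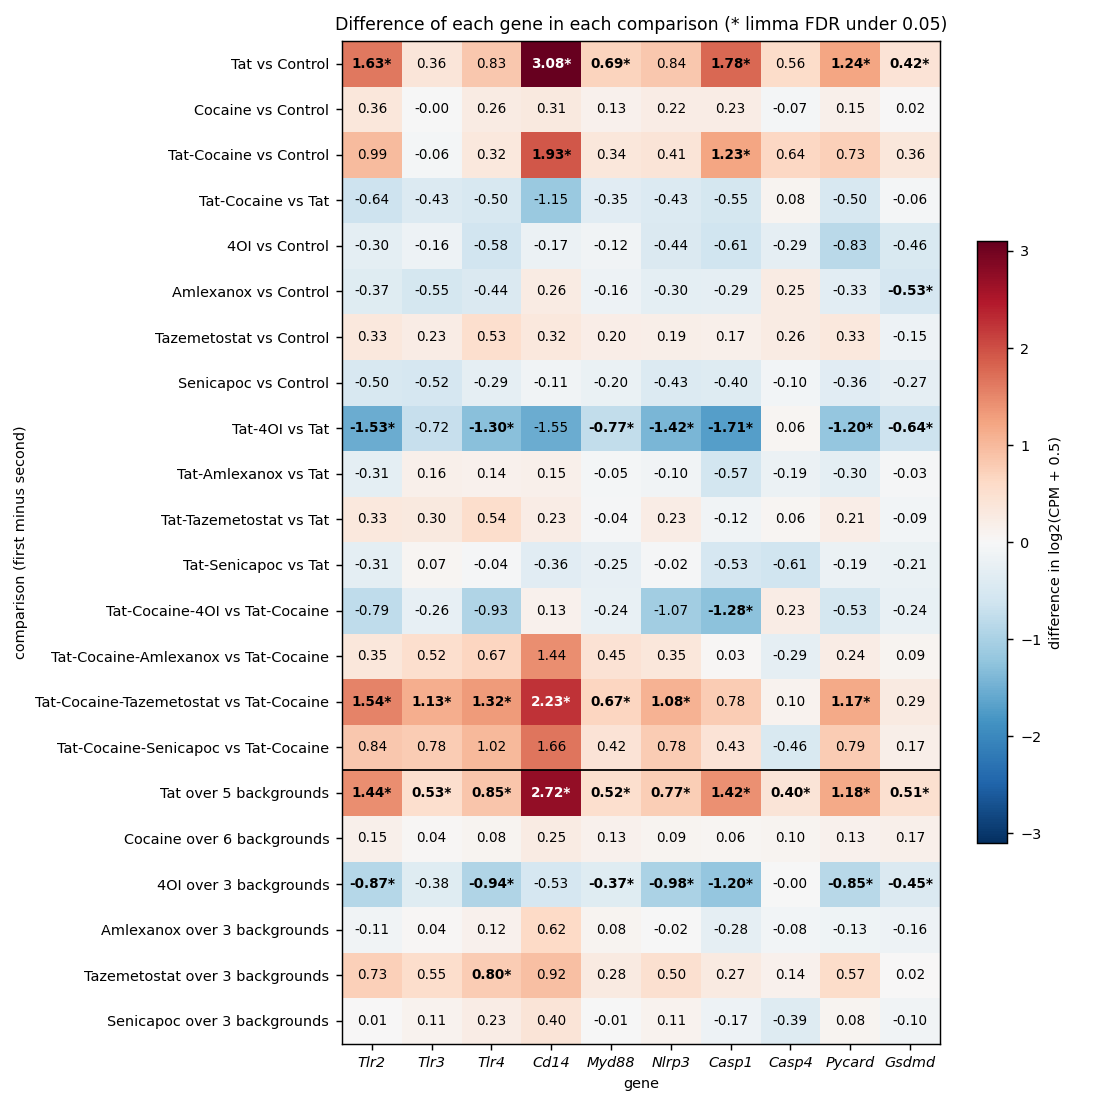
Difference in log2(CPM + 0.5) of each gene (columns) in 16 pairwise and 6 averaged comparisons (rows, first group minus second), with an asterisk where the limma FDR was under 0.05. The row of Tat over 5 backgrounds is positive and called for all 10 genes, and the rows of 4OI hold the lower values.

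No difference with cocaine alone passed the test in the 10 genes. In Cocaine against Control 0 of 10 were called by limma, 0 had an unadjusted p under 0.05, and 0.201% of all genes were called in either direction. The largest log2 difference was 0.36 ± 0.43, for Tlr2. The 3 Cocaine libraries were far apart, for example at 38.1, 117 and 55.5 CPM of Tlr2 and 5.09, 12.8 and 7.40 CPM of Tlr4, and microglial markers in them ranged from 1111 to 3488 CPM. Tat-Cocaine against Tat also gave 0 of 10 called (0 at an unadjusted p under 0.05, and 0.0189% of all genes), with 9 of the 10 differences below 0 and a median of -0.47. Averaged over the 6 backgrounds with and without cocaine, 0 of 10 were called and 1 had an unadjusted p under 0.05 (Gsdmd, 0.17 ± 0.06, FDR 0.055), where 8.94% of all genes were called. Gsdmd was called with the marker covariate (0.16, FDR 0.026, where 14.8% of all genes were called), with quantile scaling and with array weights. All 10 of these averaged differences lay between 0.04 and 0.25.

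Tat-Cocaine compared with Control gave 2 genes higher, Cd14 and Casp1, where 8.63% of all genes were higher. Casp1 was at 19.7, 18.5 and 20.4 CPM, above the 5.14 to 12.99 CPM of Control (log2 difference 1.23 ± 0.39, FDR 0.029). Cd14 was at 20.4, 39.7 and 146 CPM, also above all Control libraries but spread over a wide range (1.93 ± 0.64, FDR 0.036). Gsdmd, Pycard and Tlr2 did not overlap with Control either but did not pass the test (FDR 0.075, 0.26 and 0.12). The count of 2 fell to 0 without any 1 of the Control libraries 1 and 3 and Tat-Cocaine libraries 2 and 3, to 1 without the first Tat-Cocaine library, and to 0 in a fit to these 2 groups alone. With the microglial marker covariate it was 6 (12.4% of all genes were higher). The same-numbered libraries of these groups deviated together, and with the replicate block Tlr2 was called too (0.99, FDR 0.021), 3 in all.

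4OI was added to Tat to ask whether an itaconate ester lowers the response. In Tat-4OI against Tat, 7 of the 10 genes were lower and none higher, where 9.48% of all genes were lower. They were the receptors Tlr2 and Tlr4, the adaptor Myd88, the sensor Nlrp3, the protease Casp1, the adaptor Pycard and the pore-former Gsdmd. The median log2 difference of the 10 genes was -1.25, against -2e-04 over all genes. The same 3 Tat libraries enter this comparison and that of Tat with Control, so neither is independent of the other, and each later comparison likewise shares its Control, Tat or Tat-Cocaine libraries with others.

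Casp1 fell to 6.64, 13.98 and 6.42 CPM from the 23.5 to 40.9 CPM of the Tat libraries, a log2 difference of -1.71 ± 0.39 (FDR 0.0025). Tlr2 was at 42.5, 85.6 and 39.4 CPM, all below the 105 CPM of the lowest Tat library (-1.53 ± 0.43, FDR 0.014). Nlrp3 was at 12.3, 19.9 and 6.62 CPM, below all Tat libraries (-1.42 ± 0.39, FDR 0.012). For all 3 of these genes the second Tat-4OI library was the highest, as was the second Tat library among its group. Tlr4 was at 4.17, 7.15 and 3.07 CPM (-1.30 ± 0.35, FDR 0.0100). Pycard stood at 7.49, 18.2 and 9.93 CPM, close under the 20.3 CPM of the lowest Tat library (-1.199 ± 0.42, FDR 0.0496). The Pycard call was lost with a pseudocount of 0.1, no filter, quantile scaling, no trend or a fit to these 2 groups alone. Myd88 was at 26.8, 35.6 and 29.2 CPM (-0.77 ± 0.22, FDR 0.018) and Gsdmd at 20.8, 16.5 and 20.9 CPM (-0.64 ± 0.14, FDR 0.0013). Both sets of libraries lay below every Tat library. Gsdmd had the smallest FDR of the 10 although its difference was the smallest of the 7 called.

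The other 3 genes were not called. Cd14 was at 19.8, 90.3 and 29.1 CPM with 4OI and Tat, and the second of these libraries lay above the third Tat library at 40.5 CPM (-1.55 ± 0.64, FDR 0.091). Tlr3 overlapped between the groups (-0.72 ± 0.39, FDR 0.20). Casp4 was at 68.0, 90.1 and 88.7 CPM, spread as in the Tat libraries (0.06 ± 0.30, FDR 0.90).

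The count of 7 with 4OI fell to 2 without the second Tat or the third Tat-4OI library (Casp1 and Gsdmd being called without any 1 library), to 4 without the first Tat-4OI library, and to 2 in a fit to these 2 groups alone. Of the 12 microglial markers, 2 were lower (Itgam and Csf1r) and none higher, with a median log2 difference of -0.99 and summed levels from 765 to 1677 CPM. Of the 5 border-macrophage markers, 4 were lower. S100a8 was lower too, the neutrophil and monocyte markers summing to 0.910 to 3.55 CPM. None of 10 neuronal markers was called, but their sum was 2945 to 3551 CPM against 1454 to 2645 CPM in Tat, without overlap, and its part in the result was not tested. With the microglial marker covariate 5 of the 10 genes were lower (6.23% of all genes were), Casp1 at -0.97, Tlr2 at -0.76, Tlr4 at -0.72, Nlrp3 at -0.66 and Gsdmd at -0.53. Myd88 (-0.45, FDR 0.094) and Pycard (-0.42, FDR 0.20) were then not called. The covariate itself was at 6.47, 7.25 and 6.40 in the Tat libraries and 5.77, 6.43 and 5.34 in the Tat-4OI libraries, with little overlap. Marker level and 4OI can therefore hardly be told apart in this comparison.

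In Tat-Cocaine-4OI against Tat-Cocaine, 1 of the 10 genes was lower, Casp1, where 3.29% of all genes were lower. Casp1 was at 5.24, 14.2 and 6.20 CPM against 19.7, 18.5 and 20.4 CPM (-1.28 ± 0.39, FDR 0.039). Nlrp3 (-1.07 ± 0.39, FDR 0.087) and Tlr4 (-0.93 ± 0.35, FDR 0.10) were below 0 but overlapped between the groups. Cd14 was at 23.1, 145 and 46.4 CPM, the same spread as without 4OI (0.13 ± 0.64). The Casp1 call was lost without any 1 of the Tat-Cocaine-4OI libraries 1 and 3 or of the 3 Tat-Cocaine libraries and in the fit to the 2 groups alone, and 3 genes were called without the second Tat-Cocaine-4OI library. With the marker covariate 2 were called lower, Casp1 (-0.63) and Nlrp3 (-0.42), where 8.38% of all genes were. Summed microglial markers were at 540 to 1621 CPM in Tat-Cocaine-4OI and 1295 to 2118 CPM in Tat-Cocaine. Border-macrophage markers were at 36.6 to 164 against 220 to 452 CPM, and astrocyte markers at 8943 to 13691 against 6999 to 8901 CPM. Neither of these 2 sums overlapped between the groups, and their part in the Casp1 call was not tested.

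4OI alone against Control gave 0 of 10 called, with 1 gene at an unadjusted p under 0.05 (Gsdmd), where 3.15% of all genes were called in either direction. Gsdmd was at 17.1, 16.5 and 15.1 CPM, below all Control libraries (-0.46 ± 0.14, FDR 0.052). It was called with the replicate block, in which the same-numbered libraries of these 2 groups deviated together, so that 1 of 10 was then called. All 10 differences were below 0, with a median of -0.37. Over the 3 backgrounds (no Tat, Tat, Tat and cocaine) the averaged 4OI difference was called lower for 7 of 10 genes, where 11.8% of all genes were lower. Casp1 fell by 1.199 ± 0.22 (FDR 0.00014), Nlrp3 by 0.98 ± 0.22 (FDR 0.0014), Tlr4 by 0.94 ± 0.20 (FDR 0.00071) and Tlr2 by 0.87 ± 0.25 (FDR 0.0098). Pycard fell by 0.85 ± 0.24 (FDR 0.0099), Gsdmd by 0.45 ± 0.08 (FDR 6.19e-05) and Myd88 by 0.37 ± 0.13 (FDR 0.033). The value for Casp4 was -0.0014 ± 0.17, and Cd14 (-0.53 ± 0.37) and Tlr3 (-0.38 ± 0.23) did not pass.

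Leaving out any 1 library left 6 or 7 of these calls, Myd88 being the call that was lost. Across these same backgrounds 8 of the 12 microglial and 5 of the 5 border-macrophage markers were lower with 4OI. With the microglial covariate 4 of the 10 genes were called lower (9.48% of all genes were), Casp1 (-0.60, FDR 1.2e-05), Tlr4 (-0.46), Nlrp3 (-0.36) and Gsdmd (-0.35), while Tlr2 (-0.25, FDR 0.22) and Pycard (-0.22, FDR 0.21) were not. Whether the Tat difference itself changed with 4OI was tested as an interaction. It was called for 0 of 10 genes by limma (1 with an unadjusted p under 0.05, Myd88) and for 0.497% of all genes. The interaction was -1.11 ± 0.55 for Casp1, -1.24 ± 0.61 for Tlr2 and -0.65 ± 0.32 for Myd88 (FDR 0.42, 0.42 and 0.42). With the microglial covariate 1 of 10 was called, Casp1 (-0.78, FDR 0.047), where 1.43% of all genes were.

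**Figure D3:**
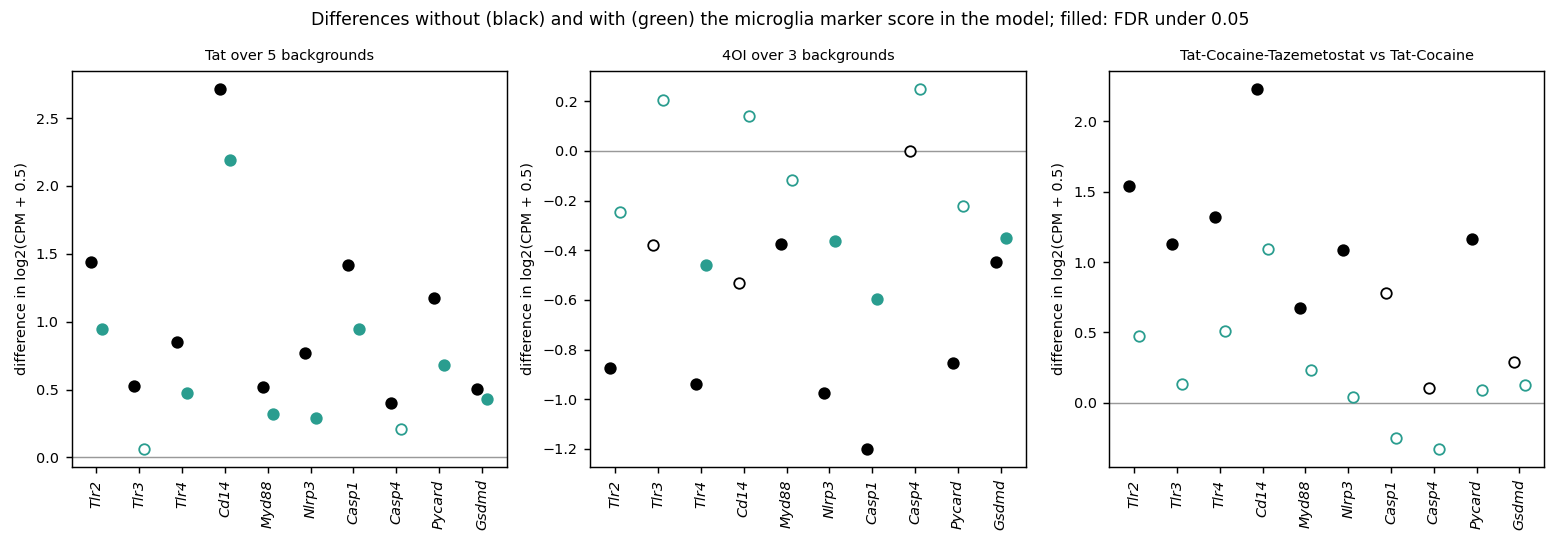
Difference in log2(CPM + 0.5) of each gene without (black) and with (green) the mean level of 12 microglial markers in the model, filled where the FDR was under 0.05, for Tat over 5 backgrounds, 4OI over 3 backgrounds and Tat-Cocaine-Tazemetostat against Tat-Cocaine. With the covariate 8 of 10, 4 of 10 and 0 of 10 genes were called, where 41.3%, 20.5% and 0.258% of all genes were called in either direction.

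Tazemetostat was followed by higher values when given with Tat and cocaine. In Tat-Cocaine-Tazemetostat against Tat-Cocaine, 7 of the 10 genes were higher (Tlr2, Tlr3, Tlr4, Cd14, Myd88, Nlrp3 and Pycard), where 15.2% of all genes were higher. The median log2 difference of the 10 genes was 1.11, against 0.018 over all genes. Cd14 was at 220, 309 and 187 CPM against 20.4, 39.7 and 146 CPM (2.23 ± 0.64, FDR 0.014). Tlr2 was at 265, 385 and 224 CPM against 71.8, 78.3 and 165 CPM (1.54 ± 0.43, FDR 0.013). Nlrp3 was at 50.01, 66.3 and 40.4 CPM against 23.9, 18.8 and 30.2 CPM (1.08 ± 0.39, FDR 0.036). In each of these genes no library of the first group overlapped with the second. The same held for Tlr4 (1.32 ± 0.35), Pycard (1.17 ± 0.42), Tlr3 (1.13 ± 0.39) and Myd88 (0.67 ± 0.22). Casp1 (0.78 ± 0.39, FDR 0.12) and Gsdmd (0.29 ± 0.14, FDR 0.10) also did not overlap but were not called, and Casp4 overlapped (0.10 ± 0.30). The share of all genes without overlap was not computed.

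The 7 calls depended on single libraries, and microglial markers differed between the groups as well. Of the 12 markers 6 were higher, among them Trem2, P2ry12, Ptprc, Csf1r and Cd68, the median difference was 1.10, and the summed level was 2927 to 4639 CPM against 1295 to 2118 CPM. At the same time 7 of 10 neuronal markers were lower, their sum being 1016 to 1566 CPM against 2199 to 2803 CPM, and 4 of 10 oligodendrocyte-lineage markers were lower, which was not tested for its part in the calls. With the marker covariate 0 of 10 genes were called by limma, the differences ranging from -0.33 (Casp4) to 1.09 (Cd14, FDR 0.28). The marker score itself did not overlap, at 7.16 to 7.84 in Tat-Cocaine-Tazemetostat and 5.75 to 6.58 in Tat-Cocaine. Marker score and compound therefore cannot be told apart in this comparison. Over all genes the covariate took the higher calls from 2423 to 24, and 0.258% were then called in either direction, so 0 of 10 was near the share over all genes. The count was also 0 without any 1 of the first Tat-Cocaine, the second Tat-Cocaine and the second Tat-Cocaine-Tazemetostat libraries, and 4 without the first Tat-Cocaine-Tazemetostat library. Tazemetostat against Control gave 0 of 10 called (0 at an unadjusted p under 0.05), where 0% of all genes were called, and Tat-Tazemetostat against Tat likewise 0 of 10, with 0 at an unadjusted p under 0.05 and 0% of all genes. In the latter group the second library stood apart, with 373 CPM of Tlr2 against 135 and 141 CPM, and it also held the most microglial marker RNA of its group, 4636 CPM. Averaged over 3 backgrounds, 1 gene was higher with Tazemetostat, Tlr4 (0.80 ± 0.20, FDR 0.015), where 6.75% of all genes were, so this count too was near the share over all genes. The other 9 averaged differences were from 0.02 for Gsdmd to 0.92 for Cd14, and 7 of the 10 had an unadjusted p under 0.05. The Tlr4 call was lost without the second Tat-Tazemetostat library, without which 0 genes were called, and with the marker covariate (0.37, FDR 0.13), with which 1.33% of all genes were higher. The count was 2 with quantile scaling or a 2 CPM filter and 7 with array weights. The interaction of Tazemetostat with Tat was called for 0 of 10 genes (0 at an unadjusted p under 0.05) and 0% of all genes.

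Gsdmd was lower with Amlexanox alone. It was at 17.04, 17.6 and 12.2 CPM against 19.9, 24.8 and 23.3 CPM in Control, without overlap (-0.53 ± 0.14, FDR 0.010). It was the 1 gene of 10 that was lower, where 7.60% of all genes were lower, so the count was near the share over all genes. The call was lost without Control library 2 or 3 or Amlexanox library 3 and in the fit to these 2 groups alone, but was present with the marker covariate (-0.49, FDR 0.0082, where 8.91% of all genes were lower). Summed border-macrophage markers were at 382 to 449 CPM with Amlexanox and 507 to 571 CPM in Control, without overlap, while microglial sums overlapped. Astrocyte markers summed to 5787 CPM in Amlexanox library 3, and the part of these markers in the call was not tested. Tat-Amlexanox against Tat gave 0 of 10 called (0 at an unadjusted p under 0.05, and 0.837% of all genes), with Gsdmd at 32.8, 28.9 and 27.6 CPM, as in Tat (-0.03 ± 0.14). The interaction of Amlexanox with Tat was called for 0 of 10 genes and 1.84% of all genes, with Gsdmd the 1 gene at an unadjusted p under 0.05 (0.50 ± 0.19, FDR 0.15). In Tat-Cocaine-Amlexanox against Tat-Cocaine 0 of 10 were called and 1 had an unadjusted p under 0.05 (Cd14, 1.44 ± 0.64, FDR 0.24), where 0.925% of all genes were called. Over 3 backgrounds 0 of 10 were called, 0 at an unadjusted p under 0.05, where 7.99% of all genes were.

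Senicapoc against Control gave 0 of 10 called, with 0 at an unadjusted p under 0.05 and 0% of all genes. All 10 differences were below 0, from -0.10 for Casp4 to -0.52 for Tlr3. In Tat-Senicapoc against Tat 0 of 10 were called (0.409% of all genes) and 1 had an unadjusted p under 0.05, Casp4. The 3 Tat-Senicapoc libraries held 50.7, 51.3 and 50.8 CPM of Casp4, all below the 65.3 CPM of the lowest Tat library (-0.61 ± 0.30, FDR 0.27). With the marker covariate 1 gene was called in this comparison, Casp1 (-0.48, FDR 0.046), where 2.79% of all genes were lower. Tat-Cocaine-Senicapoc against Tat-Cocaine gave 0 of 10 called (2 at an unadjusted p under 0.05, Tlr4 and Cd14, and 0.0441% of all genes), with a median difference of 0.78. Tlr4 was at 17.4, 19.4 and 15.01 CPM there, above the 5.85 to 10.8 CPM of Tat-Cocaine (1.02 ± 0.35, FDR 0.19). Over 3 backgrounds 0 of 10 were called, 1 at an unadjusted p under 0.05 (Casp4, -0.39 ± 0.17, FDR 0.22), where 1.16% of all genes were. The interaction of Senicapoc with Tat was called for 0 of 10 genes (0 at an unadjusted p under 0.05) and 0% of all genes.

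The genes moved together from library to library, and with the microglial markers. Over 48 libraries the Pearson correlation of the level, as log2(CPM + 0.5), with the microglial marker score (the mean log2 level of its 12 genes) was 0.946 for Nlrp3, 0.921 for Tlr3, 0.893 for Tlr4, 0.875 for Pycard, 0.865 for Tlr2 and 0.856 for Casp1. It was lower for Myd88 (0.796), Cd14 (0.654) and Gsdmd (0.637), and lowest for Casp4 (0.343). Computed on deviations from the group means, the order was led by Nlrp3 (0.949) and Casp1 (0.935), with Cd14 at 0.632, Casp4 at 0.512 and Gsdmd at 0.435. The libraries share their treatments and their depth, and these values are descriptions. Correlations with the neuronal marker score were negative for all 10, from -0.472 for Casp4 to -0.761 for Myd88, and the part of neuronal RNA in the differences above was not tested.

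**Figure D4:**
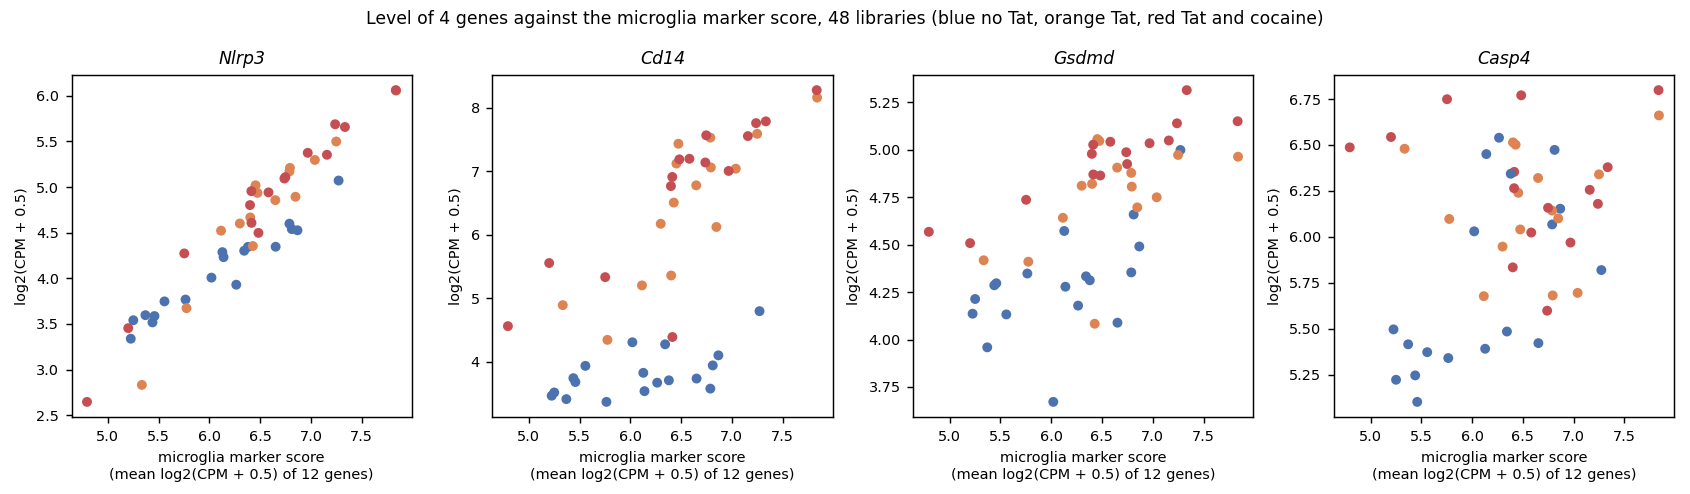
Level of Nlrp3, Cd14, Gsdmd and Casp4 as log2(CPM + 0.5) against the microglial marker score in 48 libraries, coloured blue without Tat, orange with Tat and red with Tat and cocaine. Nlrp3 follows the score closely (r = 0.946), Cd14 splits by Tat at equal score, and Casp4 is scattered (r = 0.343).

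Casp4 had the lowest correlations with the other members. Among the other 9 genes the 36 pairwise correlations over 48 libraries ran from 0.701 to 0.959 with a median of 0.892, while the 9 pairs with Casp4 ran from 0.213 to 0.510 with a median of 0.380. On deviations from the group means the medians were 0.81 and 0.236 and the ranges overlapped, from 0.359 to 0.946 and from 0.088 to 0.684, and there Gsdmd, not Casp4, had the lowest correlation with the microglial score. Casp4 had 1 or more libraries apart in several groups without Tat, with 88.4 CPM in the second Control library against 39.99 and 41.4 CPM, 92.5 CPM in the second Amlexanox library against 40.9 and 64.8 CPM, and 87.0 CPM in the second Senicapoc library against 36.8 and 37.4 CPM. With the astrocyte marker score Casp4 correlated at -0.623 over libraries and -0.636 on deviations from the group means. These were larger in size than its microglial values (0.343 and 0.512), and the part of astrocyte RNA was not tested.

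The genes whose group means were most like those of each member were found by the highest Pearson correlation over the 16 groups. They were Lyn (0.996) for Tlr2, Tgfbr2 (0.9749) for Tlr3, Stat6 (0.987) for Tlr4, Il7 (0.992) for Cd14 and Rab8a (0.987) for Myd88. Nlrp3 was closest to Tnfaip8l2 (0.996), Casp1 to Pik3ap1 (0.995), Pycard to Ripk3 (0.994) and Gsdmd to Cd48 (0.974). The nearest gene to Casp4, Agpat2, reached 0.933. Spi1, which encodes a transcription factor of the myeloid lineage, was the third nearest to Nlrp3 (0.993), and Nfkb1 was the third nearest to Cd14 (0.990). For the other members the third nearest were Il4r (Tlr2), Tgfb1 (Tlr3), Tnfaip8l2 (Tlr4), Igsf6 (Myd88), Sp100 (Casp1), Gadd45a (Casp4), Fbxo5 (Pycard) and Ifi35 (Gsdmd). These values are the highest among all tested genes, and no baseline was computed for them.

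Other genes of the same pathways, from lists built by role with earlier results of these data known, were counted beside the members. Over all genes 14.6% were higher with Tat and 9.48% lower with 4OI added to Tat, and the microglial and border-macrophage markers moved in these comparisons as given above, their part in the lists' counts not being tested. Of 6 other Toll-like receptors tested, 3 were higher with Tat and 1 was lower, with a median log2 difference of 0.68. Tlr1, the partner of Tlr2, rose from 2.14 ± 1.06 to 27.5 ± 17.01 CPM (3.25 ± 0.56, FDR 5.8e-05), and Tlr6, its other partner, rose by 0.79 ± 0.25 (FDR 0.022). Tlr5, the flagellin receptor, fell from 52.2 ± 8.66 to 20.4 ± 3.07 CPM (-1.33 ± 0.35, FDR 0.0054). With 4OI added to Tat 5 of the 6 were lower, with a median of -1.41. Tlr5 fell further, to 8.93 ± 6.00 CPM (-1.36 ± 0.35, FDR 0.0070), so that it was lower both with Tat and with 4OI added to it. Tlr7 (-1.63 ± 0.39), Tlr6 (-1.08 ± 0.25) and Tlr1 (-2.14 ± 0.56) were lower too.

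Of 6 co-receptors and chaperones, 1 was higher with Tat and 1 lower with 4OI added, in both cases Ly86, which encodes the partner of Cd180, at 51.9 ± 20.6 CPM in Tat, 12.2 ± 7.003 CPM in Control and 14.6 ± 6.25 CPM in Tat-4OI. The medians of this list were 0.39 and -0.43. Of 10 adaptors and kinases, 4 were higher with Tat (Irak2, Tirap, Ticam2 and Traf6, by 0.38 to 0.97) and none was lower, with a median of 0.13. With 4OI added, Irak2 (-0.94 ± 0.22) and Ticam2 (-1.02 ± 0.27) were lower and Tab3 (0.39 ± 0.13) was higher, with a median of -0.093. Irak1, Tab1, Tab2 and Traf3 passed the test in neither comparison.

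Of 4 genes that restrain these receptors, Irak3, an inhibitory relative of the Irak kinases, rose with Tat from 8.58 ± 1.93 to 53.0 ± 17.6 CPM (2.52 ± 0.35, FDR 1.7e-06) and was at 14.8 ± 7.16 CPM with 4OI added (-1.85 ± 0.35, FDR 0.00032). Sarm1 and Tollip were lower with Tat (-0.51 ± 0.15 and -0.18 ± 0.06), and Sarm1 was higher with 4OI added to Tat (0.54 ± 0.15). Summed neuronal markers were at 2623 to 4125 CPM in Control, 1454 to 2645 CPM in Tat and 2945 to 3551 CPM in Tat-4OI. The part of neuronal RNA in these differences was not tested. The medians of this list were 0.50 and -0.42. Of 9 other inflammasome sensors and partners 5 were higher with Tat, with a median of 0.74, and none was lower. Nod2 rose from 1.09 ± 0.53 to 7.82 ± 0.71 CPM (2.44 ± 0.33), and Nlrc4 (1.69 ± 0.39), P2rx7 (1.03 ± 0.22) and Nod1 (0.58 ± 0.13) rose as well. With 4OI added 6 of 9 were lower, with a median of -0.80, among them Nod2 (-2.21 ± 0.33), P2rx7 (-0.80 ± 0.22), Aim2 (-0.76 ± 0.23) and Nlrp1a (-1.36 ± 0.42). Of 6 other caspases and pore formers Casp12 (1.63 ± 0.33) and Casp8 (0.91 ± 0.28) were higher with Tat and lower with 4OI added (-1.09 ± 0.33 and -0.95 ± 0.28), and Gsdme was higher with 4OI added (0.45 ± 0.15). The medians were 0.35 and -0.42. None of the genes on these 6 lists passed the test when Amlexanox, Tazemetostat or Senicapoc was added to Tat, where at most 0.837% of all genes did.

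**Figure D5:**
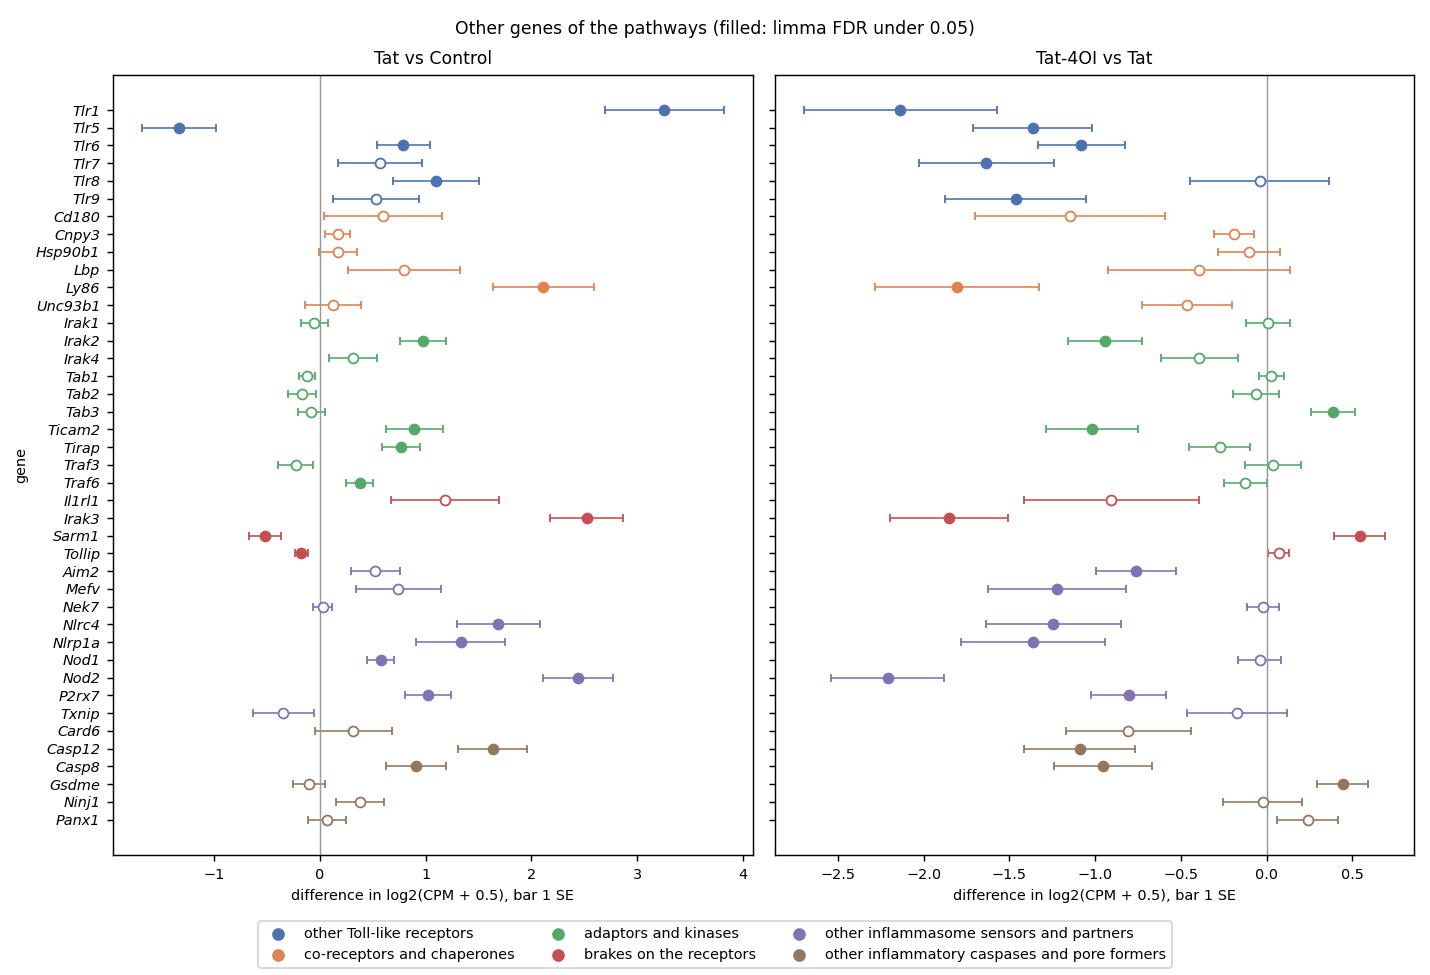
Difference in log2(CPM + 0.5) with its SE for the tested genes of the other 6 lists in Tat against Control (left) and Tat-4OI against Tat (right), coloured by list and filled where the limma FDR was under 0.05. Most filled points lie to the right in the first panel and to the left in the second, Tlr5 being left in both.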

How the data were processed

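The 48 polyA RNA libraries, in 16 groups of 3, were measured as 1 table of normalised values. According to the labels and the study's methods, the reads were trimmed (Trim Galore 0.4.5), aligned (STAR 2.7.2) and counted per gene as uniquely mapped reads (featureCounts, Subread 1.5.3). Per the submitters' notes the builds named were mRatBN7.2 and hg38, whereas the methods name another rat build, so no positions of measured genes are given. The authors scaled the reads with edgeR's TMM factors, and the deposited values are a signal in CPM whose column sums differ between libraries. Of the values above 0 in a library, only 84.3% to 87.3% were whole reads (within 0.02 read). Because the rest were fractional, no count model was run. The mean, fold-change and p-value columns of the authors' own comparisons were not used.

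Values were tested as log2(CPM + 0.5) with limma 3.58.1 in R 4.3.3 (trend, 1 mean per group, all 48 libraries in 1 fit), with FDR adjusted over 15890 genes and called under 0.05. Fold changes are on that scale and understate changes of low genes. The 10 members were all named. Other pathway genes were named where called, at most the 4 with the smallest FDR per list and comparison, and marker lists covered microglia and macrophages, border macrophages, neutrophils and monocytes, neurons, astrocytes, the oligodendrocyte lineage, and endothelium with pericytes and fibroblasts. Values of 1 marker gene are not reported here. Members and lists were chosen with earlier results of these data known. Alternatives were pseudocounts of 0.1 and 1, a 2 CPM filter, no filter, median-ratio and quantile scaling, no trend, array weights, the compared groups alone, a replicate block, each library left out, and the microglial score as covariate (added after seeing the data). Same-numbered libraries deviated together (every pair's correlation over 0.1) in 5 of 16 pairwise comparisons. Replicates differed by more than counting noise (chi-square per degree of freedom at least 5.86). Scripts were tested on simulated data. Levels of different genes were not compared, since no lengths were used.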

Additional observations from a re-analysis of the deposited data

How the results depend on the processing

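The number of members called was within 1.5 times of the reported value in 253 of 286 recomputed counts other than those leaving out a library, and no called difference changed sign. In most of the 26 comparisons 0 members were called, and a 0 that stayed 0 was scored as within 1.5 times. The share therefore says little of the comparisons with calls. Of all 260 member differences, called or not, 59 changed sign with the marker covariate, 25 with array weights and at most 2 under each other setting, none of them past the threshold afterwards. Fitted to the compared groups alone, the count was 3 for Tat against Control (from 6), 0 for Tat-Cocaine against Control (from 2), 0 for Amlexanox against Control (from 1), 2 for Tat-4OI against Tat (from 7) and 0 for Tat-Cocaine-4OI against Tat-Cocaine (from 1). With no filter it was 1 for Tat-Cocaine against Control and 0 for Tat-Cocaine-4OI against Tat-Cocaine. Array weights, whose estimation did not fully converge, gave 6 for 4OI and 5 for Senicapoc against Control (each from 0), 2 for Tat-Cocaine-4OI, 3 for Tat-Cocaine-Amlexanox and 8 for Tat-Cocaine-Senicapoc against Tat-Cocaine, 7 for Tazemetostat over 3 backgrounds, and 1 each for Cocaine over 6, Senicapoc over 3 and the 4OI by Tat interaction. The 2 CPM filter gave 1 for 4OI against Control and 2 for Tazemetostat over 3. Median-ratio scaling gave 1 for 4OI against Control, and quantile scaling 1 for Cocaine over 6 and 2 for Tazemetostat over 3. The replicate block gave 1 for 4OI against Control, 3 for Tat-Cocaine-4OI against Tat-Cocaine, 1 for Cocaine over 6 (Gsdmd, FDR 0.038) and 6 for Tazemetostat over 3 (Tlr2, Tlr3, Tlr4, Cd14, Nlrp3 and Pycard, the largest FDR being 0.037), and changed no other count by over 1.5 times. The marker covariate gave 6 for Tat-Cocaine against Control, 1 for Tat-Senicapoc against Tat, 2 for Tat-Cocaine-4OI and 0 for Tat-Cocaine-Tazemetostat against Tat-Cocaine, 1 for Cocaine over 6, 4 for 4OI over 3, 0 for Tazemetostat over 3 and 1 for the 4OI by Tat interaction. The cause of these changes was not tested.

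Leaving out 1 library, the count ranged from 2 to 7 for Tat against Control, 0 to 2 for Tat-Cocaine against Control, 0 to 1 for 4OI and for Amlexanox against Control, 2 to 8 for Tat-4OI against Tat, 0 to 3 for Tat-Cocaine-4OI, 0 to 1 for Tat-Cocaine-Amlexanox, 0 to 7 for Tat-Cocaine-Tazemetostat and 0 to 1 for Tat-Cocaine-Senicapoc against Tat-Cocaine, 0 to 1 for Cocaine over 6 and 0 to 3 for Tazemetostat over 3. It was 10 throughout for Tat over 5 and 6 to 7 for 4OI over 3. In the whole table, quantile scaling moved the share of higher among called genes from 68.5% to 54.6% for Tat against Control, from 39.2% to 50% for Tat-4OI against Tat and from 52.9% to 40.8% for Tat over 5, while 6, 6 and 10 members were called. Members near 5 CPM, such as Tlr4 in the 4OI groups, rest on the fewest reads.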
